A study of Mus musculus with 12 samples.

Results

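Hearts that were collected as replicates of one genotype differed widely in the RNA of atrial muscle. In the 6 libraries of the NS-DADm experiment the atrial myosin light chain gene Myl7 was above 300 FPKM in 3 libraries and below 100 FPKM in the other 3, and these are called atrial-rich and atrial-poor here. They were 6 of the 12 libraries of the study. FPKM is the number of fragments scaled for the length of the transcript and the mapped total of the library, so it is a level per length.

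The study measured total RNA of mouse heart in 2 experiments of 6 libraries. The NS-DADm experiment held 3 WT libraries (W1, W2, W3) and 3 libraries of NS-DADm hearts (NS1, NS2, NS3), in which HDAC3, a histone deacetylase, is present but described by the submitters as inactive. NS-DADm is known as a pair of mutations in the domains of the corepressors NCOR1 and SMRT that activate HDAC3. The KO experiment held 3 WT libraries of its own and 3 libraries labelled HDAC3 KO. Neither the age of the mice, how HDAC3 was deleted nor the parts of the heart taken is given. Replicates are called biological in the labels but are tied to no named animals, so each p-value below rests on the variation among the libraries at hand, part of which may be technical.

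The members were chosen on the level of Myl7 alone. Myl7 stood at 50.9, 9.77 and 84.3 FPKM in W1, W2 and NS2, and at 796, 446 and 804 FPKM in W3, NS1 and NS3. The library nearest to the upper limit from above was thus NS1, and the one nearest to the lower limit from below was NS2. Both classes held both genotypes, with 1 WT and 2 NS-DADm libraries among the atrial-rich and 2 WT and 1 NS-DADm library among the atrial-poor. Because a measured gene set the classes, the differences between them are given as a description without a test, and Myl7 carries no result.

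Atrial and ventricular muscle cells share most of their contractile machinery but use separate myosin light chains. Atrial cells also carry secretory granules filled with atrial natriuretic peptide, make the hormone-like ligand BMP10, and slow their calcium pump with sarcolipin in place of much of the phospholamban of the ventricle. Part of this atrial set, above all Nppa, is known to return in diseased ventricles.

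The libraries were alike in size. Their FPKM summed to between 531362 and 560144, and genes at 1 FPKM or more numbered 11644 to 11699 in the atrial-rich and 11429 to 11575 in the atrial-poor libraries. The depth read from the steps of low FPKM values was about 11300000 to 12900000 fragments in the atrial-rich and 10200000 to 13000000 in the atrial-poor libraries, which overlap. Xist, which is made from the inactive X chromosome of females, was between 15.1 and 20.6 FPKM in the 6 libraries, and the Y-linked Ddx3y was at 0.06 FPKM in W1 and had no listed value in the others. Hdac3 itself lay between 28.2 and 32.1 FPKM in all 6.

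The classes differed in a small set of genes, most of them much higher in the atrial-rich libraries. Of 11705 genes at 1 FPKM or more in 3 or more libraries, 61 were at least 2-fold higher in the atrial-rich libraries with no overlap between the classes (0.521%), and 1 was lower by the same measure (0.00854%). Myl7 is 1 of the 61 by construction and is left out of the counts below, which are over the 60 others. Of these 60, 17 were below 1 FPKM in every atrial-poor library and passed the filter only through the atrial-rich ones, so they had to differ. Bmp10, Hamp and Mlana are among these 17. The size is the mean of the difference within WT and the difference within NS-DADm on the log2(FPKM + 1) scale, on which changes of low genes look smaller than they are. The measure without the 2-fold limit counted 806 genes as higher (6.89%) and 507 as lower (4.33%), but 586 and 886 with libraries centred on their median and 1655 and 1724 without NS2. The median difference of the 60 was 1.34, against 0.02 over all genes. Without NS3 the count of 61 higher genes was 37, and without any other single library it lay between 46 and 69.

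The known markers of atrial muscle were among the genes with the largest differences, together with Hamp and Cfd described further on. All 6 markers used beside Myl7 (Myl4, Sln, Nppa, Bmp10, Mybphl and Dkk3) separated the classes as higher without overlap, against 6.89% of all genes. Bmp10 passed the filter only through the atrial-rich libraries and had to differ. Myl4, the atrial essential myosin light chain (chromosome 11, 104546017 to 104587215 in GRCm38.p6), was at 51.4, 10.6 and 82.6 FPKM in W1, W2 and NS2. It reached 736, 604 and 1029 FPKM in W3, NS1 and NS3. The lowest atrial-rich library thus lay far above the highest atrial-poor one, and the log2 difference was 4.90 within WT and 3.24 within NS-DADm.

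Sln, which encodes sarcolipin, an inhibitor of the sarcoplasmic reticulum calcium pump, followed the same order. It stood at 25.2, 5.13 and 34.3 FPKM in W1, W2 and NS2 and at 358, 307 and 440.0 FPKM in W3, NS1 and NS3. Mybphl, a myosin-binding protein of atrium and conduction system, was at 3.68, 0.65 and 6.25 FPKM in the atrial-poor libraries in that order. In the atrial-rich libraries it was at 65.6, 45.9 and 74.7 FPKM. Myl4, Sln and Mybphl each ranked the 6 libraries exactly as Myl7 did, from W2 at the bottom through W1, NS2, NS1 and W3 to NS3. This order was shared by 40 of the 11705 genes (0.342%) and by 9 of the 60. The 60 were chosen for no overlap between classes set by Myl7, which fixes part of this order, so their share is no separate result.

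Nppa, the gene of atrial natriuretic peptide, was the most abundant gene of the set. It was at 404, 243 and 369.8 FPKM in W1, W2 and NS2 and at 2728, 2329 and 4204 FPKM in W3, NS1 and NS3. Dkk3, which encodes a secreted protein of the dickkopf family, was at 3.25, 1.91 and 3.59 FPKM in the atrial-poor and at 38.3, 32.5 and 43.8 FPKM in the atrial-rich libraries. For both genes the log2 difference was nearly equal in the genotypes, at 3.12 within WT and 3.08 within NS-DADm for Nppa and at 3.48 and 3.08 for Dkk3.

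Bmp10, a ligand of the bone morphogenetic protein family made in atrial muscle (chromosome 6, 87428994 to 87434512), had the largest difference of the 60. Its cells for W1, W2 and NS2 hold the mark #N/A in place of a value, taken as 0 here, and what the mark stands for is not stated. It was at 35.8, 53.9 and 64.8 FPKM in W3, NS1 and NS3. Its log2 difference of 5.55 depends on the pseudocount and is no bound, as it became 8.85 with a pseudocount of 0.1. Hamp, the gene of the iron hormone hepcidin, was at 0.28 and 0.88 FPKM in W1 and W2, had no listed value in NS2, and was at 22.6, 46.9 and 57.4 FPKM in the atrial-rich libraries. Neither gene followed the order of Myl7, since W3 was the lowest of the atrial-rich libraries for both.

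**Figure D1:**
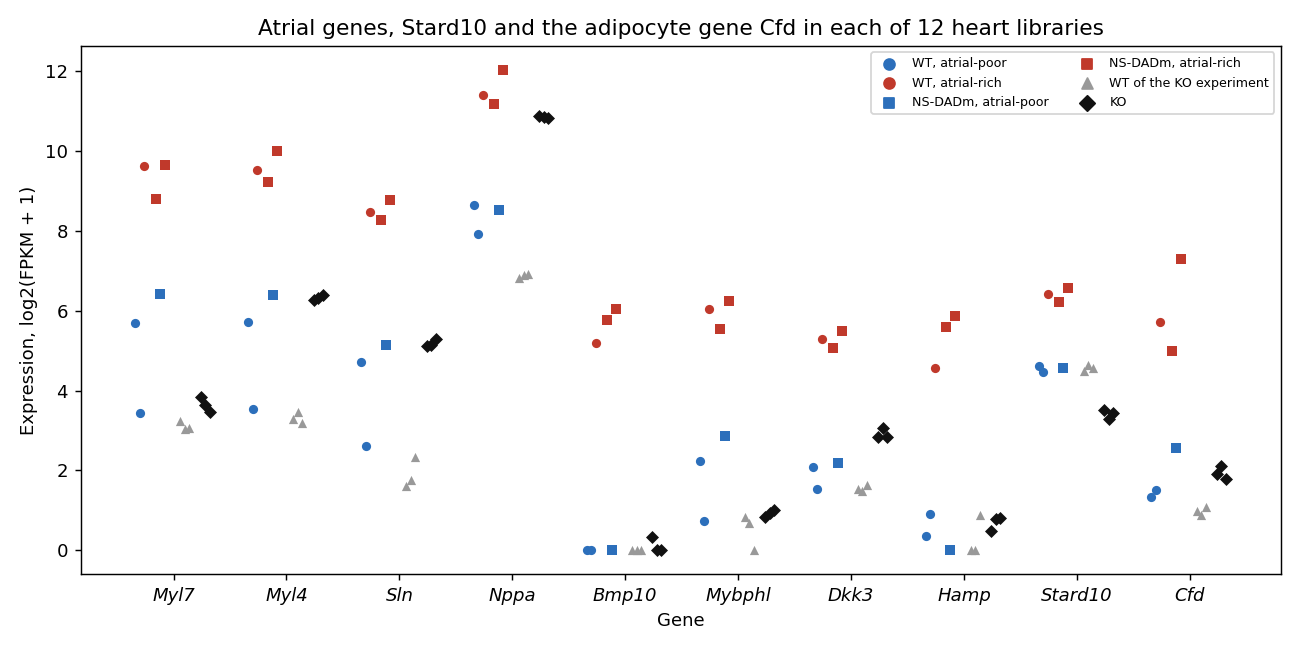
Expression as log2(FPKM + 1) of 10 genes in each of the 12 heart libraries, 1 point per library, coloured by class in the NS-DADm experiment and in grey and black in the KO experiment. The red and blue points do not overlap for any gene shown, and the black KO points stand above the grey WT points for Myl4, Sln, Nppa and Dkk3 and below them for Stard10.

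The promoters of 4 of these genes are shown because the genes part ways in the KO hearts described further on, where Nppa and Myl4 rose while Bmp10 and Mybphl stayed below the filter. Each line gives the 250 bases before the start of the gene, 5′ to 3′ on the strand of the gene, from RefSeq on GRCm38.p6. Capitals mark matches on either strand to GATAA (GATA factors), TNAAGTG (NKX2-5), GGTGTG (T-box factors), AGGTCA (nuclear receptors) or the MEF2 motif (CTA, any 4 letters, TAG), and no match overlapped another in the windows shown. The windows are chr6:87428744-87428993 for Bmp10, chr3:108364661-108364910 for Mybphl, chr11:104550413-104550662 for Myl4 and chr4:148000472-148000721 for Nppa, all on the plus strand. That of Myl4 lies before an annotated start inside the span given above for the gene.
Bmp10: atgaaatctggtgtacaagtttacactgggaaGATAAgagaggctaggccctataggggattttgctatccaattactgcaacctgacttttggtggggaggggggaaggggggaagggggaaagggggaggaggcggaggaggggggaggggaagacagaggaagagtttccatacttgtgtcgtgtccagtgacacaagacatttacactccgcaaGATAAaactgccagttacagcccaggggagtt
Mybphl: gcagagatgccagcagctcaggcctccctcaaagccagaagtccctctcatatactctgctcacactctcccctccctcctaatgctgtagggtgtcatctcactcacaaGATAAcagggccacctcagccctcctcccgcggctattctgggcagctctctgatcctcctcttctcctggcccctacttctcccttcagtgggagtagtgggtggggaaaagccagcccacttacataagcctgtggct
Myl4: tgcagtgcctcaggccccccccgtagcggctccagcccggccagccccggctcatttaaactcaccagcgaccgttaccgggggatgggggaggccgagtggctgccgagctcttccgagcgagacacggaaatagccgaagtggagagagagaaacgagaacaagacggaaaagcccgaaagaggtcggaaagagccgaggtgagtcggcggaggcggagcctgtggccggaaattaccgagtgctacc
Nppa: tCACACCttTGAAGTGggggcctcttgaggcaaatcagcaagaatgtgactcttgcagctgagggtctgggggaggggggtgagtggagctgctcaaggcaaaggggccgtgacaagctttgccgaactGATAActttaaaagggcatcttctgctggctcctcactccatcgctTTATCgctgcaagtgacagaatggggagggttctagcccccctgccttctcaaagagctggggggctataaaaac
Bmp10 held the GATAA letters at 218 and 32 bases before the start, Mybphl held them at 140, and Nppa held them at 121 and, on the other strand, at 75. Nppa also held TNAAGTG at 241 and, on the other strand, GGTGTG at 249 bases before the start, while none of the 5 motifs was found in the window of Myl4. Of the 61 genes, Myl7 included, 43 had an entry among 32851 promoters. For the 43 the first entry of each gene was used, while the shares of all promoters count every entry. GATAA was in 14 of the 43 (32.6%) and in 22.6% of all promoters, TNAAGTG in 6 (14%) and 10.1%, GGTGTG in 8 (18.6%) and 16.3%, AGGTCA in 5 (11.6%) and 14%, and the MEF2 motif in 0 of the 43 and 3.2%. A match is a run of letters and no measured binding site, and the shares were not tested.

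Other large differences belonged to genes of several kinds. Car3, a carbonic anhydrase of muscle and fat, was at 15.3, 3.36 and 5.61 FPKM in W1, W2 and NS2 and at 45.3, 27.7 and 122 FPKM in W3, NS1 and NS3. Mlana, best known as a protein of pigment cells, was at 0.48, 0.26 and 0.40 FPKM in the atrial-poor and at 9.96, 5.34 and 9.99 FPKM in the atrial-rich libraries. The cytochrome P450 gene Cyp2e1 and the adipocyte hormone gene Retn both reached their highest level in NS3, at 32.1 and 23.4 FPKM. In each of these 4 genes the lowest atrial-rich library stood above the highest atrial-poor one. The other members of the 60 had log2 differences between 1.01 and 2.42, and among them were the imprinted genes Igf2 and H19, the intracellular fibroblast growth factor Fgf12 and the T-type calcium channel gene Cacna1h.

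How closely the atrial genes kept to one another differed between genes. Sln was between 0.415 and 0.491 times the level of Myl4 in the atrial-poor libraries and between 0.428 and 0.509 times in the atrial-rich, so their ratio was about the same at the lowest and the highest level. Mybphl was at 0.061 to 0.076 times Myl4 in the atrial-poor and at 0.073 to 0.089 times in the atrial-rich libraries. Bmp10 stood apart. It was at 0.049 to 0.089 times Myl4 in the atrial-rich libraries, a share that would give 5.39 FPKM in NS2 and 3.35 FPKM in W1, where no value was listed.

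Other genes of the set kept a level of their own in the atrial-poor libraries. Stard10, a lipid transfer protein, was at 23.5, 21.3 and 22.6 FPKM in W1, W2 and NS2 although Myl4 varied between them, and at 85.5, 73.8 and 94.4 FPKM in W3, NS1 and NS3. Sbk3, a kinase of the SH3-binding family, was at 4.25, 2.36 and 4.39 FPKM in the atrial-poor and at 35.6, 23.8 and 32.6 FPKM in the atrial-rich libraries. Nppa was at 4.48 to 23.0 times Myl4 in the atrial-poor libraries and at only 3.71 to 4.09 times in the atrial-rich.

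**Figure D2:**
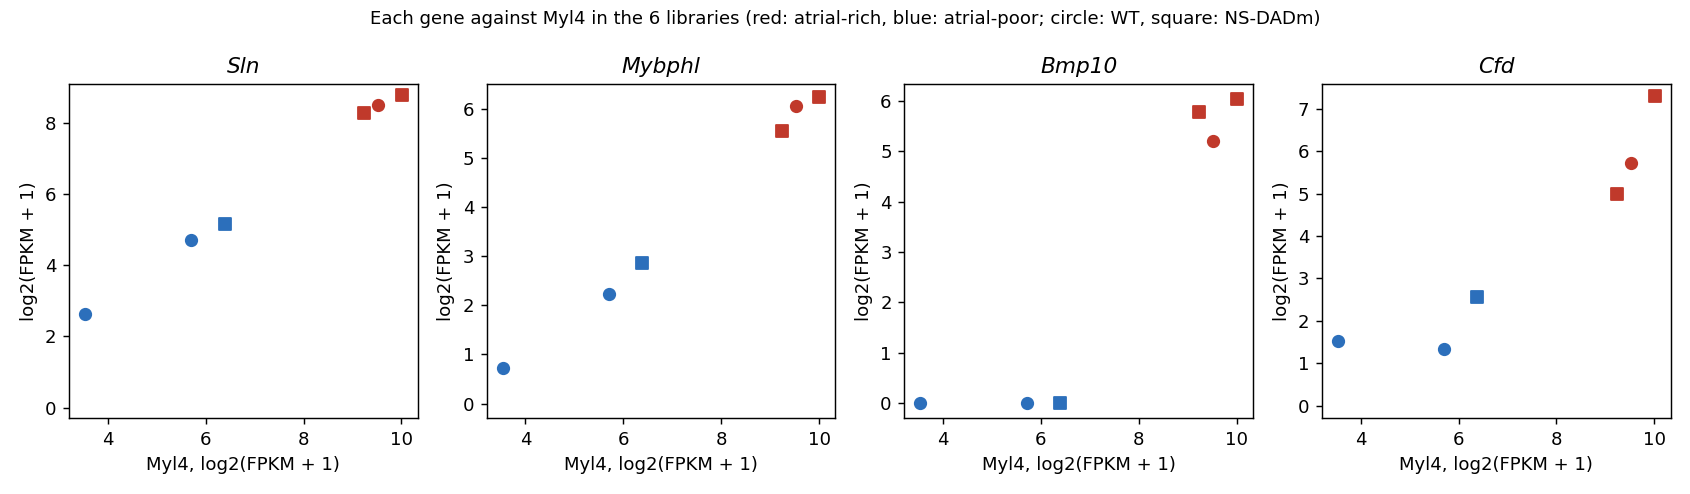
Level of Sln, Mybphl, Bmp10 and Cfd against that of Myl4, both as log2(FPKM + 1), in the 6 libraries of the NS-DADm experiment. Sln and Mybphl climb steadily with Myl4, Bmp10 has no listed value in the 3 atrial-poor libraries and is drawn at 0 there, and Cfd is highest in NS3 at 156 FPKM.

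The list of atrial muscle genes as a whole was less uniform than its leading members. Of 20 genes beside Myl7, 19 passed the filter, 2 of them only through the atrial-rich libraries. Of the 19, 11 were higher in the atrial-rich libraries without overlap and 0 were lower, against 6.89% and 4.33% of all genes. The median difference was 0.89 on the log2 scale. The 11 include the markers described above (Myl4, Sln, Nppa, Bmp10, Mybphl and Dkk3), and the list was drawn up with earlier results of these data known. The count is thus no separate support for the classes. Pam, the enzyme that amidates peptides and a main protein of atrial granules, was at 176, 180.1 and 226 FPKM in W1, W2 and NS2 and at 368, 329.6 and 446 FPKM in W3, NS1 and NS3. Kcnj3, which encodes a subunit of the acetylcholine-activated potassium channel, was at 26.8, 28.3 and 23.3 FPKM in the atrial-poor and at 46.1, 30.3 and 48.9 FPKM in the atrial-rich libraries. Tbx5, a T-box factor of atria and left ventricle, was at 10.1, 10.7 and 9.28 FPKM in the atrial-poor and at 21.0, 13.8 and 21.7 FPKM in the atrial-rich libraries. In these genes NS1 lay closest to the atrial-poor group.

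The other 8 members of the list that passed the filter overlapped. The potassium channel genes Kcnj5, Kcna5 and Kcnk3, the connexin Gja5, the nuclear receptors Nr2f1 and Nr2f2, the ligand Angpt1 and the repressor Hey1 had differences that ranged from -0.09 for Hey1 to 0.77 for Gja5. Cacna1d did not pass the filter. Among 11 transcription factors of the atrial side and venous pole only Tbx5 separated the classes of the 8 that passed. This is near the share over all genes, of which 11.2% separated the classes in either direction.

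Ion channel genes separated the classes about as often as all genes did. Of 28 channel genes that passed the filter, some of them also in the atrial list, 3 separated the classes as higher and 0 as lower. The shares over all genes were 6.89% and 4.33%, and the median difference of the channel genes was 0.02. Outside the atrial list 1 of 22 channel genes separated the classes as higher. The 3 were Kcnj3, the auxiliary calcium channel subunit Cacna2d2 and Abcc8, a subunit of ATP-sensitive potassium channels. Cacna2d2, which passed the filter only through the atrial-rich libraries, was at 0.39, 0.23 and 0.22 FPKM in W1, W2 and NS2 and at 2.50, 1.17 and 1.12 FPKM in W3, NS1 and NS3. Of 8 genes of the pacemaker and conduction list that passed, 0 separated the classes. Over all genes 11.2% did so in either direction, so a count this small does not tell the list from all genes. Hcn4, the main pacemaker channel, was at 1.17, 1.63 and 1.13 FPKM in the atrial-poor and at 2.62, 1.38 and 1.31 FPKM in the atrial-rich libraries.

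Ventricular and metabolic genes were slightly lower in the atrial-rich libraries. Of 12 ventricular genes 3 were lower without overlap and 1 was higher, against 4.33% and 6.89% of all genes, with a median difference of -0.08. Myl3, the ventricular essential light chain, was at 7233, 6927 and 7109.9 FPKM in W1, W2 and NS2 and at 5875, 6773 and 6307 FPKM in W3, NS1 and NS3. Phospholamban (Pln), the ventricular inhibitor of the calcium pump, was at 4007, 3966 and 3974 FPKM in the atrial-poor and at 3432, 3409 and 3533 FPKM in the atrial-rich libraries. The third was Fhl2, a LIM-domain protein. Myl2, the ventricular regulatory light chain, overlapped, as NS1 held 20066 FPKM and NS2 18523 FPKM. Myh7, the slow myosin heavy chain, went the other way, at 23.7, 32.1 and 29.0 FPKM in the atrial-poor and 33.2, 61.3 and 57.1 FPKM in the atrial-rich libraries.

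The genes of mitochondrial fuel use were all shifted by a little in one direction. All 25 genes of fatty acid oxidation that were counted had a difference below 0, with a median of -0.10, and 11 of them separated the classes. All 30 genes of oxidative phosphorylation were below 0 too, with a median of -0.09, and 9 separated them. Over all 11705 genes 5075 were below 0 and 507 were lower without overlap (4.33%), or 6545 and 886 with libraries centred on their median. Fabp3, the fatty acid carrier of muscle, was at 5981, 6010.3 and 5682 FPKM in W1, W2 and NS2 and at 5057, 5159.6 and 4985 FPKM in W3, NS1 and NS3. Both medians stayed below 0 with libraries centred on their median (-0.14 and -0.12) and without any 1 library. Without W3, 7 genes of oxidative phosphorylation turned above 0, and the other libraries turned at most 2 genes of either list. FPKM is relative to the total of a library, so these are shifts in share. In bulk RNA fewer ventricular cells and less of these RNAs per cell cannot be told apart.

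Genes that were lower in the atrial-rich libraries differed by little. Among genes with no overlap and a mean of 5 FPKM or more in the higher class, the 15 largest differences of this sign lay between -0.46 and -0.29 on the log2 scale. Rgs4, a regulator of G protein signalling, led them at 8.09, 7.36 and 6.65 FPKM in W1, W2 and NS2 against 5.80, 4.39 and 4.04 FPKM in W3, NS1 and NS3. Timm10, a chaperone of mitochondrial import, was at 70.4 and 66.5 FPKM in W1 and W2 and at 43.6 FPKM in W3, but within NS-DADm it was at 53.1 FPKM in NS2 and at 49.6 and 48.5 FPKM in NS1 and NS3. The 1 gene lower past 2-fold was the histone gene Hist2h2aa2, at 4.57, 4.77 and 3.84 FPKM in the atrial-poor libraries and without a listed value in the others. It is a member of a family with near-identical copies, between which reads can be split.

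**Figure D3:**
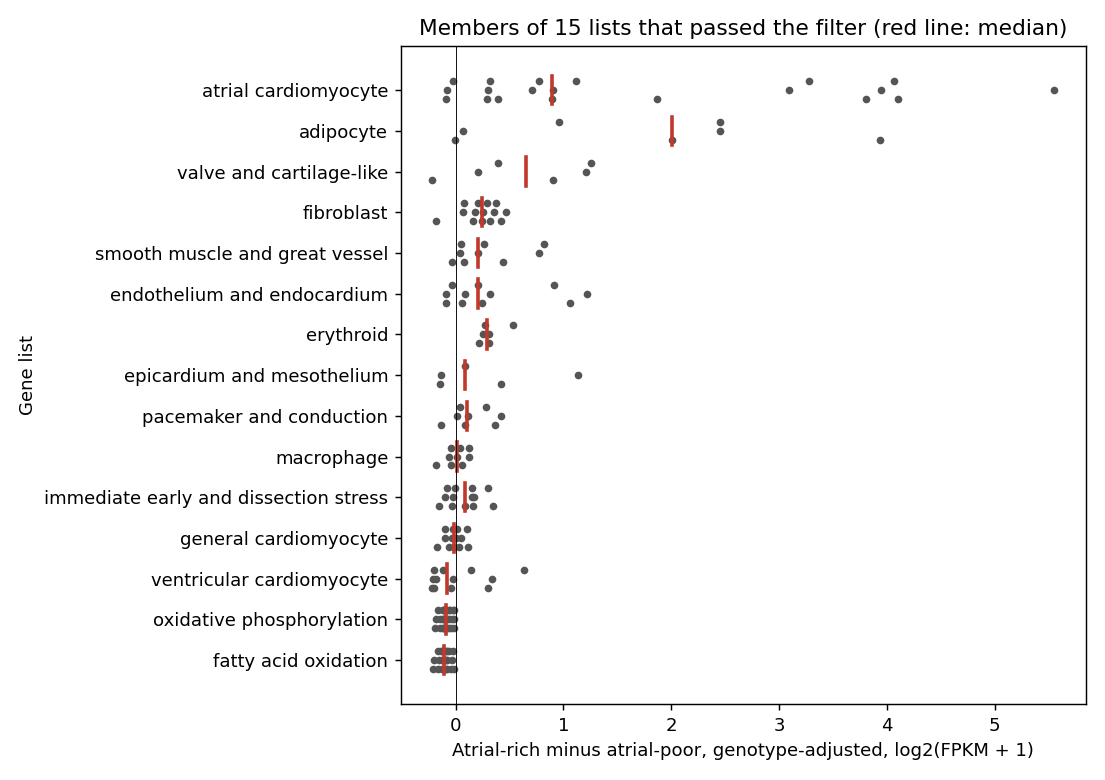
Difference between atrial-rich and atrial-poor libraries on the log2(FPKM + 1) scale for the genes of 15 lists that passed the filter, 1 point per gene, with the median as a red line and Myl7 kept in the atrial list. The atrial, adipocyte and valve lists reach far to the right with medians of 0.90, 2.01 and 0.65, while the lists of fatty acid oxidation and oxidative phosphorylation lie wholly left of 0.

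Several genes of fat and valve were also higher in the atrial-rich libraries. Of 7 adipocyte genes that passed the filter 5 separated the classes as higher, against 6.89% of all genes. The list's median difference was 2.01. With W3, NS1 or NS3 left out, 6 genes passed. The 5 thus hold a gene that passed only through the atrial-rich libraries and had to differ. Cfd, the adipocyte protease adipsin, was at 1.53, 1.85 and 4.86 FPKM in W1, W2 and NS2 and at 51.5, 30.6 and 156 FPKM in W3, NS1 and NS3. Adipoq, the gene of adiponectin, was at 2.97, 0.51 and 0.74 FPKM in the atrial-poor and at 8.02, 6.51 and 25.4 FPKM in the atrial-rich libraries. Fabp4 and Cidea, which heart cells other than adipocytes also express, overlapped. NS3 held the highest level of each of the 5, and Ucp1, the marker of brown fat, was at 23.6 FPKM there, at 1.69 and 0.68 FPKM in NS1 and W3 and without a listed value in the others. Without 1 library the median of the list lay between 1.47 (without NS2) and 2.70 (without W3).

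Valve genes followed with smaller values. Of 6 valve and cartilage-like genes that passed 4 separated the classes as higher, against 6.89% of all genes, with a median of 0.65. With W3, NS1 or NS3 left out, 5 genes passed. The 4 thus hold a gene that passed only through the atrial-rich libraries and had to differ. Cytl1, a cytokine-like protein of cartilage, was at 13.5, 9.84 and 11.4 FPKM in W1, W2 and NS2 and at 30.8, 19.95 and 36.6 FPKM in W3, NS1 and NS3, and the matrix proteins Comp, Fmod and Postn were the other 3. Without NS3 the median of the list was 0.29 over 5 genes. Of the mesothelial list 5 of 13 genes passed, with a median of 0.09, and 1 separated the classes. This was Upk3b, a uroplakin of mesothelium, which passed the filter only through the atrial-rich libraries. It was at 0.57 and 0.72 FPKM in W1 and NS2, had no listed value in W2, was at 1.31 FPKM in W3 and in NS1 and reached 7.86 FPKM in NS3. Without NS1 or NS3 the list's median was -0.02 and none separated the classes.

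Vascular and connective tissue genes differed less. Of 11 endothelial genes 4 were higher without overlap. They were Npr3, the clearance receptor of natriuretic peptides that endocardium carries, Plvap, a protein of fenestrated endothelium, Vwf and Pecam1. Npr3 was at 6.21, 3.64 and 4.95 FPKM in W1, W2 and NS2 and at 13.5, 9.83 and 14.4 FPKM in W3, NS1 and NS3. Cdh5 and Kdr had differences of -0.03 and -0.08, but 8 of the 11 genes were above 0, and the median of the list was 0.21. Of 14 fibroblast genes 8 separated the classes as higher, with a median of 0.25, and of 9 smooth muscle genes 4 did, led by Tagln at 0.82. The share over all genes was 6.89%. With W3, NS1 or NS3 left out, 8 smooth muscle genes passed the filter. The 4 thus hold a gene that passed only through the atrial-rich libraries and had to differ.

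Other lists held no gene that separated the classes, where 11.2% of all genes did so in either direction. None of 9 macrophage genes, 13 immediate early and dissection stress genes or 6 erythroid genes separated the classes, with medians of 0.02, 0.09 and 0.29. Without W3, 4 macrophage and 4 immediate early genes were higher without overlap, as were 1567 of all 11547 genes. Without NS2, 3 erythroid genes were lower, as were 1724 of all 11627 genes, and the median of the erythroid list was -0.14. With a library left out every gene meets the no-overlap rule more easily. No lung gene passed the filter. Of the 60 genes 45 were past 2-fold within WT and within NS-DADm alike. NS3 held the highest level of 39, W3 of 18 and NS1 of 3. What part the adipocyte, mesothelial and valve genes have in these counts was not tested.

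**Figure D4:**
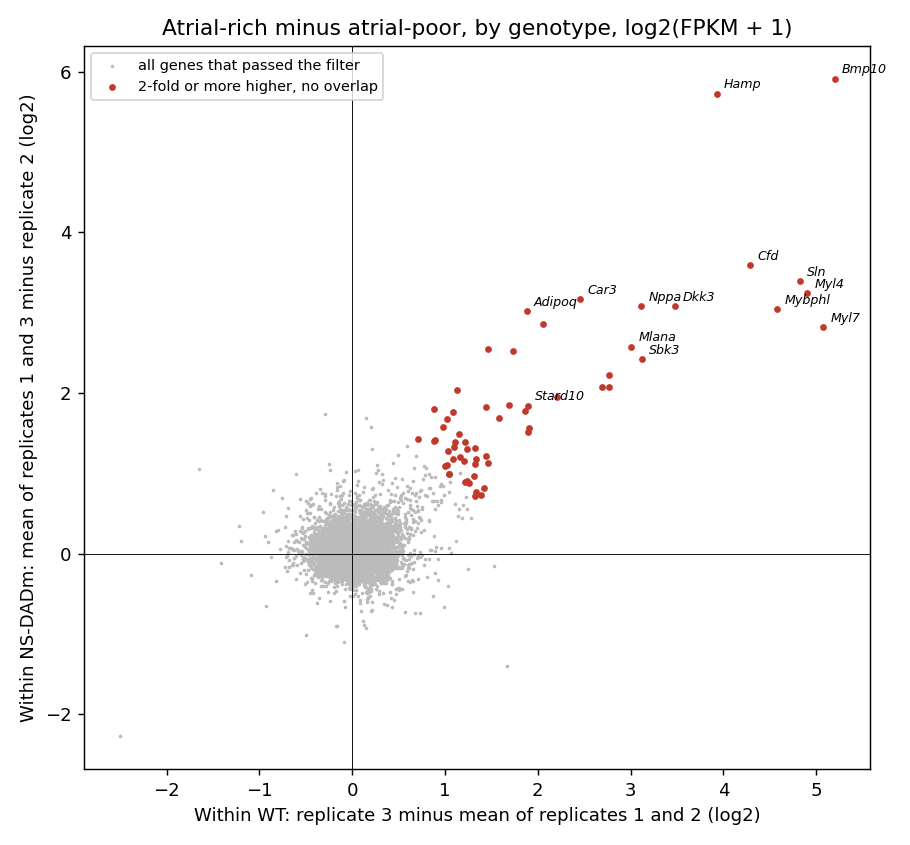
Difference between atrial-rich and atrial-poor libraries within NS-DADm (vertical) against that within WT (horizontal), on the log2(FPKM + 1) scale, 1 point per gene for 11705 genes. The 61 red genes lie in the upper right with Bmp10 and Hamp at the top, and the grey cloud of other genes is centred near 0.

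The hearts of the KO experiment, which had no part in the choice of the classes, held little atrial RNA and gave a test of the same genes under loss of HDAC3. Hdac3 was at 27.8, 29.5 and 27.1 FPKM in the 3 WT and at 8.51, 7.31 and 7.88 FPKM in the 3 KO libraries. Myl7 was at 8.38, 7.27 and 7.38 FPKM in WT and at 13.2, 11.4 and 10.1 FPKM in KO, below every atrial-poor library except W2. Ddx3y was listed at 0 in the 3 WT libraries and averaged 21.7 FPKM in KO, so sex and genotype cannot be told apart there. The tables of the experiments were normalized separately, so levels are compared across them only in broad terms.

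Some atrial genes rose strongly in KO. Nppa rose from 112, 117 and 119.7 FPKM in WT to 1877, 1847 and 1813 FPKM in KO, a log2 fold change of 3.98 ± 0.03 (SE) with an adjusted p of 1.59e-13 (limma, Benjamini-Hochberg over 11810 genes). Sln rose from 2.04, 2.37 and 4.07 to 33.6, 34.4 and 38.4 FPKM (log2 fold change 3.29 ± 0.16, adjusted p 5.34e-08). Myl4 rose from 8.84, 10.1 and 8.10 to 76.5, 78.4 and 82.7 FPKM (3.01 ± 0.07, adjusted p 8.32e-11). In all 3 genes every KO library lay far above every WT library, and KO levels of Myl4 and Sln came near those of NS2, the atrial-poor library with the most Myl4.

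Dkk3 and Pam rose as well. Dkk3 went from 1.95 ± 0.17 (SD, n = 3) to 6.56 ± 0.73 FPKM (log2 fold change 1.35 ± 0.09 (SE), adjusted p 1.87e-07 in limma). Pam went from 159.8 ± 3.07 (SD, n = 3) to 469.9 ± 5.15 FPKM (1.55 ± 0.03 (SE), adjusted p 3.13e-11 in limma).

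Other atrial genes did not join them. Bmp10 was listed at 0 in 5 of the 6 libraries and at 0.25 FPKM in KO replicate 1, and Mybphl was between 0 and 1.01 FPKM throughout, so neither passed the filter. Hamp did not exceed 0.86 FPKM in any library. Stard10 fell from 21.4, 23.9 and 22.7 FPKM in WT to 10.5, 8.72 and 9.81 FPKM in KO (log2 fold change -1.15 ± 0.07 (SE), adjusted p 1.27e-07 in limma). Kcnj3 fell by 2.03 ± 0.05 (adjusted p 1.83e-10) and Tbx5 fell by 0.37 ± 0.07 (adjusted p 0.00101) in the same fit. Of the 16 atrial muscle genes other than Myl7 tested there, 5 rose (31.2%) and 8 fell (50%). Over all genes tested 38.2% were called as higher and 27.6% as lower in KO, so most genes of any list would be called.

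Of the 60 genes higher in the atrial-rich libraries 57 were in the table of the KO experiment, 34 passed its filter and 23 lay below it. The other 3, H19, Snord22 and Ifltd1, were not analysed there. Of the 34 genes 17 rose in KO (50%), 11 fell (32.4%) and 6 passed the test in neither direction. Over all 11810 genes tested 65.8% were called, 38.2% as higher and 27.6% as lower, so both shares stand near a background in which most genes are called. With libraries centred on their median the calls over all genes were 3640 higher and 4150 lower in place of 4515 and 3260. One of the 34, Cxcl13, was below 1 FPKM in every WT library and was tested only through the KO libraries.

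The largest rise in KO among these 34 genes was that of Lgals3, followed by Nppa and Myl1. Lgals3, the gene of galectin-3, a lectin abundant in macrophages, was at 2.85, 2.48 and 4.37 FPKM in W1, W2 and NS2 and at 6.86, 10.2 and 16.5 FPKM in W3, NS1 and NS3. In the KO experiment it went from 3.58 ± 0.74 to 173 ± 7.53 FPKM (SD, n = 3; log2 fold change 5.26 ± 0.09 (SE), adjusted p 1.51e-11 in limma). All 9 macrophage genes tested there rose in KO too, against 38.2% of all genes, with a median log2 fold change of 2.39. Their part in the rise of Lgals3 was not tested. Myl1, the fast skeletal light chain, stood at 30.8, 28.3 and 26.3 FPKM in the atrial-poor and at 66.7, 57.3 and 99.3 FPKM in the atrial-rich libraries. It rose in KO from 67.5 ± 3.61 to 904 ± 4.59 FPKM (SD, n = 3; 3.72 ± 0.04 (SE), adjusted p 5.03e-13 in limma). The nonsarcomeric light chain Myl9 rose by 2.23 ± 0.04 (adjusted p 3.16e-11) and the matrix protein Comp by 1.87 ± 0.08 (adjusted p 7.07e-09). Among the falls were the T-type calcium channel Cacna1h at -0.96 ± 0.09 (adjusted p 4.06e-06) and the kinase Sbk2 at -0.84 ± 0.10 (adjusted p 2.68e-05).

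**Figure D5:**
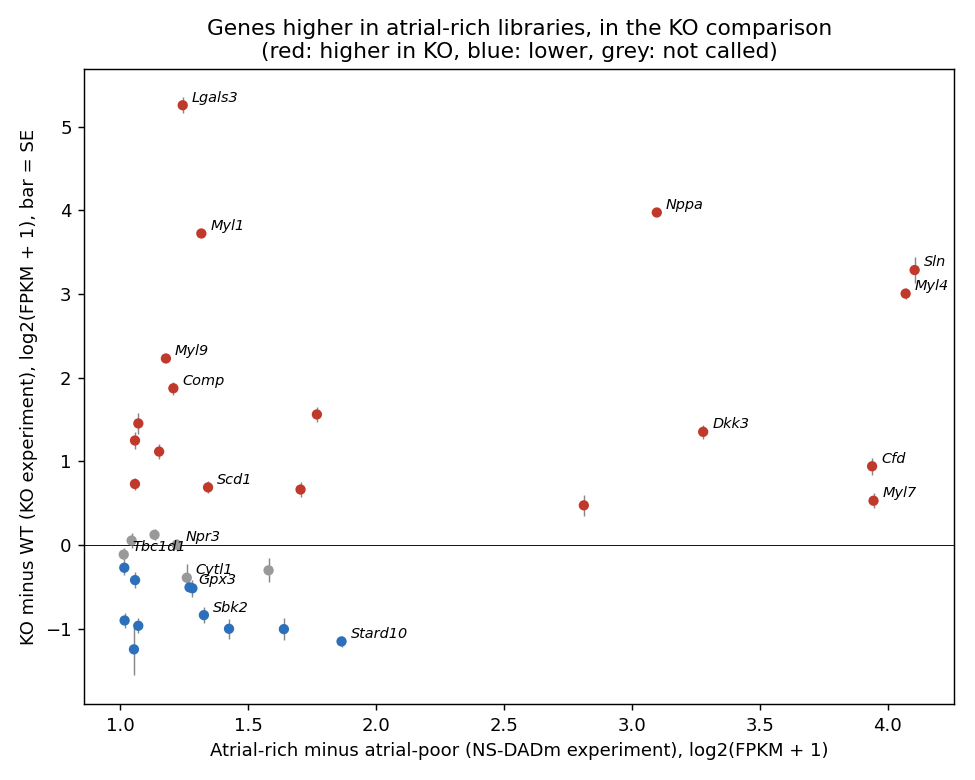
Log2 fold change of KO against WT with its SE (vertical) against the difference between atrial-rich and atrial-poor libraries (horizontal), both on the log2(FPKM + 1) scale, for the 35 of 61 genes, Myl7 included, that passed the filter in the KO experiment. Red points rose, blue points fell and grey points passed the test in neither direction. Nppa, Sln and Myl4 are high on both axes, while Stard10 is high on the horizontal axis and lies at -1.15 on the vertical.

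The difference between the effects of NS-DADm and KO, tested over all 12 libraries with limma, was called for 6 of the 57 genes in both tables, against 45.9% of 11662 genes tested. Over all genes 2063 of these differences were higher (17.7%) and 3285 lower (28.2%), or 2773 and 2476 with libraries centred on their median. The 57 genes were chosen for differing between libraries of the same genotype, which widens the error of this difference. Their few calls follow in part from that choice and do not show that the effects are alike.

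The classes bear on the comparison of NS-DADm with WT, since 2 of the 3 NS-DADm libraries and 1 of the 3 WT libraries were atrial-rich. That comparison uses the same 6 libraries as the classes, so its values are set beside those above and are not independent of them. The mean level of Nppa was 2301 ± 1917 FPKM in NS-DADm and 1125 ± 1391 FPKM in WT (SD, n = 3), and that of Myl4 was 572 ± 474 and 266 ± 407 FPKM. Fitted without the class, Nppa had a log2 fold change of 1.25 ± 1.47 (SE, adjusted p 0.714), Myl4 of 2.29 ± 2.03 (0.628), Sln of 2.13 ± 2.02 (0.652) and Bmp10 of 2.21 ± 2.57 (0.712, all limma). None of the 4 passed the test.

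With the class as a covariate the estimates shrank and their errors with them. Nppa then had a log2 fold change of 0.22 ± 0.34 (SE, adjusted p 0.791 in limma), Myl4 of 0.93 ± 0.89 (0.664), Dkk3 of 0.18 ± 0.19 (0.659) and Stard10 of -0.01 ± 0.10 (0.976), where it was above 0 without the class. A p above the threshold does not show that the genotypes are alike in these genes. The authors' deposited table gave Nppa a signed fold change of 1.30 with a q-value of 0.958 and Myl4 one of 1.22 with the same q-value.

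Genes of the set were among the most variable of the whole table within genotypes. Ranked by residual SD in the fit without the class, Bmp10 stood at rank 1, Hamp at 2, Myl4 at 3, Sln at 4, Cfd at 6, Mybphl at 7, Dkk3 at 9 and Nppa at 10 of 11705. Of the 50 most variable genes 36 were among the 60. The median residual SD of the 60 genes was 0.97 without and 0.34 with the class as a covariate, while that of all genes was 0.11 and 0.10. The genes were chosen for differing between libraries of the same genotype, so their high rank without the class, their low residual with it and their want of calls between genotypes follow from that choice.

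The covariate changed which genes the comparison of genotypes called. Without it 315 genes were called (2.69%), 148 higher (1.26%) and 167 lower (1.43%) in NS-DADm. With it 289 were called (2.47%), 126 higher (1.08%) and 163 lower (1.39%), of which 236 were shared, so 79 calls were lost and 53 gained. With the log2 level of Myl7 itself as the covariate 95 were higher (0.812%) and 103 lower (0.88%). Of the 60 genes 0 were called by limma without the covariate, and 0 were at an unadjusted p under 0.05. With it Cntfr, a cytokine receptor subunit, was called higher at 0.66 ± 0.09 (SE, adjusted p 0.0113), and Gpx3, an extracellular glutathione peroxidase, and Igfbp3, a carrier of insulin-like growth factors, were called lower at -0.79 ± 0.08 (adjusted p 0.00225) and -0.53 ± 0.08 (adjusted p 0.0164). Gpx3 and Igfbp3 had opposite signs in the fit without the class when W3 (0.04 and 0.15) or NS2 (0.07 and 0.14) was left out, and neither was called there. With the level of Myl7 as the covariate none of the 3 was called (adjusted p 0.376 for Cntfr, 0.235 for Gpx3 and 0.0763 for Igfbp3). The small errors behind these 3 calls follow in part from choosing genes that the class separates in the same libraries. The counts over all genes without the covariate depend on single libraries. Without W1 there were 59 higher and 40 lower calls, without W2 47 and 37, without NS1 64 and 84, without NS2 120 and 96, without NS3 97 and 119, and without W3 120 and 128.

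The calls with the smallest p held with and without the class. Ndrg4, a gene of the NDRG family, was at 109.7, 99.7 and 112 FPKM in W1, W2 and W3 and at 25.1, 19.1 and 28.4 FPKM in NS1, NS2 and NS3. Its log2 fold change was -2.12 ± 0.13 (SE, adjusted p 0.000313 in limma) without and -2.21 ± 0.10 (adjusted p 2.71e-05) with the class. Cyfip2 and Pttg1 had log2 fold changes of -3.62 and -4.66 without the class and of -3.56 and -4.69 with it, and Nnt, the mitochondrial transhydrogenase, had 1.23 and 1.26. Among the 5 lost calls with the largest change were Lrrc52 (1.34, adjusted p 0.0388, without and 1.38, 0.0556, with the class), Sik1, a salt-inducible kinase (1.01, 0.0424, and 1.05, 0.0558), and Serf1 (-0.72, 0.0459, and -0.77, 0.0558). The log2 fold changes of these genes were no smaller with the class. Those of Cnksr1 (0.86 without and 0.84 with it) and Lgals3bp (0.71 and 0.65), also among the 5, were smaller. In Sik1 the NS-DADm libraries were at 21.4, 23.9 and 16.2 FPKM and the WT libraries at 11.7, 7.31 and 10.1 FPKM, with no overlap of genotypes.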

How the data were processed

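Total RNA of mouse hearts was sequenced after SOAPnuke 1.5.2 had filtered adapter reads, per the labels' protocols. RSEM 1.2.12, HISAT2 2.0.4, DESeq2 1.4.5, Bowtie2 2.2.5 and the build GRCm38.p6 are named, without roles, in the submitters' processing notes. Strand use in counting was not given. For each experiment the authors deposited a table of FPKM for genes in each library, per the file headers. Cells of the NS-DADm table that hold #N/A in place of a number, 1654 to 2212 per library, were taken as 0, and what the mark stands for is not stated in the file. The authors also deposited signed fold changes (a ratio, or minus its inverse) and q-values of their own comparison. Left unused were 3 per-sample columns that could be tied to no sample. Symbols turned into dates (24 per table), numbers (7) and repeated symbols (2) were left out, which kept 17833 genes of the NS-DADm and 17043 of the KO table.

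A count test had been planned in case counts were given. The values being FPKM, limma 3.58.1 (R 4.3.3, trend and robust) was run on log2(FPKM + 1) for genes at 1 FPKM or more in 3 or more of the 6 libraries, with Benjamini-Hochberg adjustment across every gene tested and calls under 0.05. The scripts were tested on simulated data. Named genes are the markers, the 15 largest differences of each sign with a mean of 5 FPKM or more in the higher class, the leading members of each list, and the calls of NS-DADm against WT with the smallest p and those lost with the class. A few more were named after their values were seen. The members and lists were chosen with earlier results of these data known. Alternatives were another pseudocount, no filter, centring, a replicate block, left-out libraries and covariates.

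Depth was estimated from the steps of low FPKM values over single-transcript genes, with 100 bases taken off each transcript. This offset was set after other offsets had been tried on these data, and the range over the 6 libraries moved from 9600000 to 11900000 fragments with 0 bases up to 11100000 to 14400000 with 200, the classes overlapping throughout. Between 76.3% and 82.7% of the low values used came within 0.15 of a whole number, too few to rebuild counts. The labels state a higher average number of reads. Genes with near-identical or overlapping copies are uncertain.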

Additional observations from a re-analysis of the deposited data

Results flagged for a closer look

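Of the 15 named genes lower in the atrial-rich libraries 14 were in both tables, and 8 of these had an effect in NS-DADm against WT that differed from that in KO against WT, tested over all 12 libraries with limma and adjusted over 11662 genes. Values are the NS-DADm effect minus the KO effect on the log2(FPKM + 1) scale, and 45.9% of all genes tested were called. For Acot1, a fatty acyl thioesterase, the difference was 2.84 (SE 0.16, adjusted p 1.08e-08), with effects of -0.07 in NS-DADm and -2.92 in KO. For Cmss1 it was 1.4 (adjusted p 5.29e-06) and for Tnfaip8, a regulator of cell death, 1.12 (adjusted p 0.000123). For Asb5, a member of the ankyrin repeat and SOCS box family, it was 0.87 (adjusted p 0.00295). For Agtr1a, an angiotensin II receptor, it was 0.85 (adjusted p 0.000802). For Oxld1 it was 0.66 (adjusted p 0.00651) and for Kdm1b, a histone demethylase, 0.51 (adjusted p 0.0102). For Rpp30, a subunit of ribonuclease P, it was -0.37 (adjusted p 0.0424), and -0.26 (adjusted p 0.161) with libraries centred on their median.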

How the results depend on the processing

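The count of genes higher in the atrial-rich libraries past 2-fold without overlap (61, Myl7 included) was 56 without genes that had a missing value, 98 with a pseudocount of 0.1, 47 with the replicate block in place of genotype, and 37 to 69 without 1 library. The count of lower genes (1) was 2 with a pseudocount of 0.1, 0 without genes that had a missing value, and 0 to 2 without 1 library. For NS-DADm against WT (148 higher, 167 lower) the calls were 70 and 94 with no filter, 95 and 103 with the level of Myl7 as a covariate, and 47 to 120 and 37 to 128 without 1 library. The replicate block gave 258 and 238 calls, and 4483 and 3241 for KO against WT (4515 and 3260). The numbers do not pair the libraries. Same-numbered libraries deviated with correlations of 0.007, 0.376 and 0.435 in the NS-DADm experiment and of -0.056, -0.025 and 0.002 in the KO experiment, and not every library correlated best with its own number. With the level of Myl7 as a covariate the effect of NS-DADm turned to -0.15 for Nppa, -0.10 for Bmp10, -0.20 for Dkk3 and -0.20 for Stard10, which was at -0.0089 with the class. Without 1 library it ranged from -0.651 to 0.0655 for Gpx3 and from -0.41 to 0.15 for Igfbp3. The cause of these changes was not tested. Alternatives for single genes in KO against WT, and for the difference between the effects, were limited to called genes after values under the alternatives had been seen. The calls of named genes in KO against WT kept direction and side of the threshold in 343 of 345 alternative values, the exceptions being 2 for Ptgfr without a KO library. Levels below 1 FPKM rest on few fragments at this depth.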
